A study of Mus musculus with 6 samples.

Results

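The Sp and Sall genes encode zinc finger transcription factors of the outgrowing limb, and 7 of them were followed here across the parts and conditions of the mouse forelimb bud: Sp5, Sp6, Sp8, Sall1, Sall2, Sall3 and Sall4. They were taken by gene symbol from the array annotation, and they make up 7 of the 18193 genes with a probe set of their own (13 of 45101 probe sets). Forelimb buds of CD1 mouse embryos at E10.5 were cut into a distal and a proximal part, and 1 Affymetrix array was made of each part in each of 3 conditions, 6 arrays in all. The Ring1A/B double knockout (dKO) had the genotype Prx1-Cre; Ring1A-/-; Ring1Bfl/fl and no retinoic acid (RA). The RA buds were wild type, from embryos whose mothers were given 100 mg/kg all-trans RA by gavage at E10.25. The control received no RA and is described as wild type, but its genotype label is Ring1A-/-, and the series design also names a Ring1A knockout. The dKO and the control therefore share the Ring1A-/- label and differ in Ring1Bfl/fl and the Cre transgene, whereas every comparison of RA with control also changes the Ring1A label. Prx1-Cre recombines in limb bud mesenchyme and not in the ectoderm that covers it, so Ring1B loss in the ectoderm is not modelled. The number of embryos behind each array is not stated in the labels.

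SP5, SP6 and SP8 belong to the Sp/KLF family, whose C2H2 zinc fingers bind GC-rich DNA. SP6 and SP8 act in the limb ectoderm, where they are needed for the apical ectodermal ridge, the distal epithelium whose FGF signals keep the bud growing, and mice without Sp8 have truncated limbs. Sp5 is a direct target of WNT/beta-catenin signalling. The Sall proteins are vertebrate relatives of the Drosophila regulator spalt and act largely as repressors. SALL4 works at the start of limb outgrowth, SALL1 and SALL3 are expressed in the limb mesenchyme and are needed together for normal digits in mice, and SALL2 is the most divergent member. Mutations of human SALL1 and SALL4 cause Townes-Brocks and Duane-radial ray syndromes, both with malformed hands.

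Promoter windows of 300 bases, 250 before and 50 after an annotated start, were read from RefSeq (build GRCm38.p6) for the 4 genes the table holds: Sp5, Sp8, Sall1 and Sall2. Both strands were searched for 4 motifs: the TCF/LEF core CTTTGA, the GC box GGGCGG, the retinoic acid receptor half-site AGGTCA and the MEIS core TGACAG. Of all 32851 windows in the table, 16.0%, 35.7%, 16.3% and 19.2% held at least 1 match, in the same order. The Sp5 window held 2 TCF/LEF matches and none of the other motifs. Of the 3 starts of Sp8, the middle one had 1 TCF/LEF match, 1 GC box and 1 receptor half-site, and 1 further start had a single MEIS core. Of the 3 starts of Sall1, the middle one held 4 GC boxes and no other match, 1 further start had a single TCF/LEF match and the other a single GC box, and the 2 windows of Sall2 held none of the motifs. A match describes the letters of the window and is not a measured binding site. The Sp5 and Sp8 windows are printed because both genes are placed downstream of WNT in the limb, with TCF/LEF matches (CTTTGA, or TCAAAG on the other strand) in capitals, and the Sall1 window is printed for its GC boxes, the kind of sequence SP proteins bind, with GGGCGG or CCGCCC in capitals.
Sp5, chr2:70474673-70474972, plus strand: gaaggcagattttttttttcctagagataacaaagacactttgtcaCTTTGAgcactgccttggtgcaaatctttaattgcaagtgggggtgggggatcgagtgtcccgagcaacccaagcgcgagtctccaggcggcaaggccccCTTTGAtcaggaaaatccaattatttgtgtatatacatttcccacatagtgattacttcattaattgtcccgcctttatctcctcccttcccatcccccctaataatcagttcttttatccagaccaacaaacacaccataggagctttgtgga
Sp8, chr12:118846983-118847282, plus strand: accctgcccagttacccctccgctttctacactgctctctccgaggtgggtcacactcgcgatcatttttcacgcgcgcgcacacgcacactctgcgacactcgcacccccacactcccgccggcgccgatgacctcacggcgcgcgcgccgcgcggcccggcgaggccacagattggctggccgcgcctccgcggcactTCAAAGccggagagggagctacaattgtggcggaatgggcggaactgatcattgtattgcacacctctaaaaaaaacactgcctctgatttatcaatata
Sall1, chr8:89043463-89043762, minus strand: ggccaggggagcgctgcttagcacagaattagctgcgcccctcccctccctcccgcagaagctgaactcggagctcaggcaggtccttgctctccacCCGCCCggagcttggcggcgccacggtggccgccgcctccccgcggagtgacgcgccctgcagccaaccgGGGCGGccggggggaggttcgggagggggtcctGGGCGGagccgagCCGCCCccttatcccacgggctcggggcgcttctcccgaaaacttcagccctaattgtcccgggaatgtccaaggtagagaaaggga
In the Sp5 window the matches begin at positions -204 and -104 from the start, and in the Sp8 window at position -50.

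All values are MAS5 signal on a linear scale, 1 value for each probe set and array. The median signal of an array, between 59.5 and 76.1, served as its floor: a signal below it was set to it before log2 was taken, and a fold against such a value is given as "at least". With 1 array a group there is no replicate error, so the single-array differences below carry no p-value and were counted at 2-fold or more. A limma fit with condition and part as additive terms over all 12147 genes that exceeded the floor on 1 array or more was used for tests. Its residual is the disagreement between pairs of arrays, with 2 residual degrees of freedom, and is not a replicate error.

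The proximal RA array stood apart from the other 5. Across genes it correlated with them at r = 0.961 to 0.974 in log2 signal, where pairs among the others reached 0.993. Its ratio of 3′ to 5′ signal was 1.60 for GAPDH and 1.95 for actin, against 1.28 to 1.39 and 1.52 to 1.72 on the others. Both RA arrays also differed from the other 4 in Xist (12.9 and 29.5, against 3017 to 3688), in the Y-linked Eif2s3y (2783 and 3064, against at most 12.3) and in the BioB spike-in (84.4 and 103, against 1105 to 1223). The labelled deletions could not be checked, since the position of the probes against the deletions is unknown here. Rnf2, which encodes RING1B, had a signal of 1887 distally and 2147 proximally in dKO, against 2070 and 2042 in control, so its signal in dKO was close to that in control. Ring1, which encodes RING1A, had 402 to 578 in dKO, 245 to 420 in RA and 624 to 968 in control. Checked against the tissue label, the 12 markers of limb mesenchyme were above the floor on all 6 arrays.

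All 7 genes were above the floor on at least 1 array. Of their 13 probe sets, 5 were above it on all 6 arrays, 5 on some and 3 on none, and these 3 belong to Sp6, which has 4. Each gene is read below from its brightest probe set, and signals of different genes are not compared, since probes differ in brightness.

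Among the ectodermal factors, Sp8 had a signal of 1379.9 in the distal and 840.1 in the proximal dKO bud, 1078 and 58.7 in the RA bud, and 1549.9 and 604 in the control bud. The distal part was the higher one in every condition, and the proximal RA array was the only one on which Sp8 lay below the floor. Sp6, which acts alongside Sp8 in the ectoderm, had 475 distally and 253 proximally in dKO, 353 and 75.3 in RA, and 558 and 227 in control. The 6 arrays had the same order as for Sp8, with distal control highest and proximal RA lowest, just above the floor. Sp5 had 287 distally and 316 proximally in dKO, 30.7 and 70.9 in RA, and 145 and 297 in control. Both RA arrays were the lowest for Sp5, the distal one below the floor, and the distal control array lay between them and the other 3.

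Sall1 had a signal of 2496 distally and 1799 proximally in dKO, 2252 and 313 in RA, and 3244 and 1616 in control. The 6 arrays again had the order seen for Sp8, with the distal part higher in each condition and proximal RA far below the other 5. Sall3 had 214 distally and 142 proximally in dKO, 833 and 44.8 in RA, and 724 and 272 in control. Both dKO arrays were below both control arrays, and the RA arrays held the highest and the lowest value of all, the lowest below the floor. Sall2 had 1565 and 1685 in dKO, 854 and 827 in RA, and 1501 and 1724 in control, distal part first. The 4 arrays of dKO and control lay close together and both RA arrays lay lower. Sall4 had 5249.95 and 5357 in dKO, 6043 and 4259 in RA, and 5277 and 5019 in control, and was the only one of the 7 whose log2 signal spanned less than 1 over the 6 arrays (0.50).

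**Figure D1:**
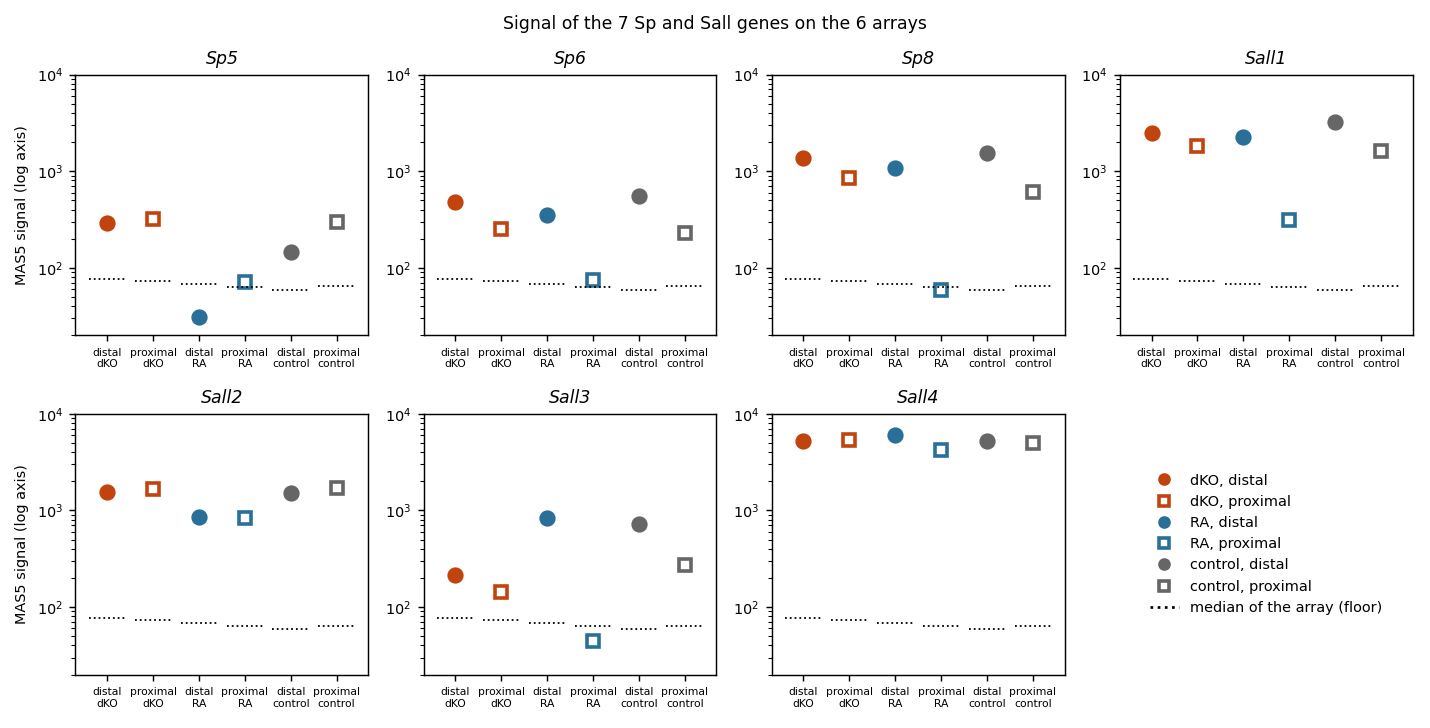
MAS5 signal (log axis) of the brightest probe set of each gene on the 6 arrays, 1 point for each array, with filled circles for distal and open squares for proximal buds and dotted lines at each array's median. Sp6, Sp8, Sall1 and Sall3 drop on the proximal RA array (58.7 for Sp8, 44.8 for Sall3), Sp5 and Sall2 are low on both RA arrays, and Sall4 stays between 4259 and 6043.

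The distal and proximal parts were compared to see which of the factors separate the outgrowing tip from the base of the bud. Sp6, Sp8, Sall1 and Sall3 were higher distally in all 3 conditions, and Sp5 was not. In dKO none of the 7 reached 2-fold (0.722% of all genes tested were higher and 0.515% lower distally): Sp6 differed by log2 0.91, Sp8 by 0.72, Sall3 by 0.59 and Sall1 by 0.47. In RA 4 of 7 were 2-fold or more higher distally, where 6.16% of all genes were (4.40% were lower). Sp8 was at least 17.1-fold higher (log2 4.10), Sall3 at least 13.2-fold (3.73), Sall1 7.19-fold (2.85) and Sp6 4.69-fold (2.23). In control the same 4 genes were higher distally (1.40% of all genes were), by log2 1.41 for Sall3, 1.36 for Sp8, 1.30 for Sp6 and 1.01 for Sall1. Sp5 was lower in the distal control bud by log2 -1.03 (1.35% of all genes were lower), a value just past 2-fold that fell short of it with 16 added to the signal in place of the floor (-0.96), after division by the array median (-0.93) and after quantile normalization (-0.92). Sall1 also fell short with 16 added (0.998), and Sp6 did with the mean of its 4 probe sets (0.25, and 0.64 in RA). For Sp5 the values in the other pairs were -0.14 in dKO and -0.06 in RA, the last with the distal array at its floor. The median of the 7 genes was log2 0.47 in dKO, 2.23 in RA and 1.01 in control, beside medians of -0.01, -0.06 and 0.00 over all genes tested.

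**Figure D2:**
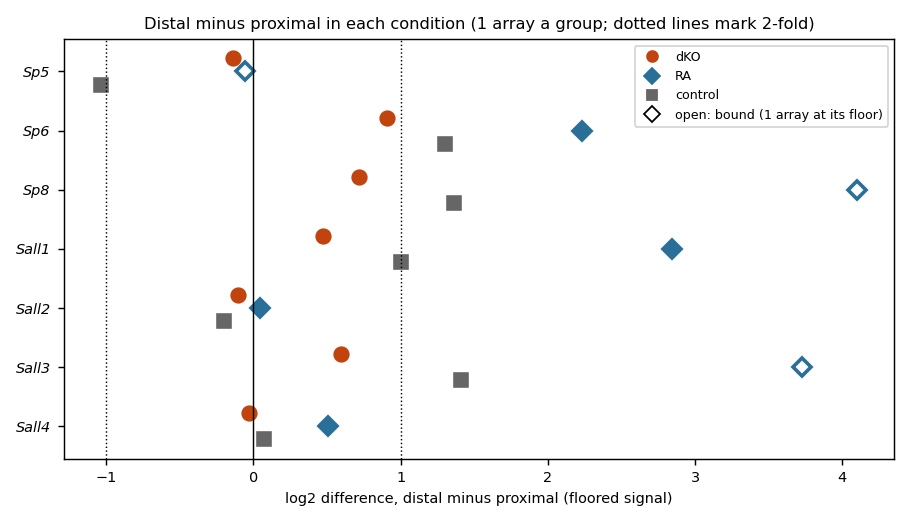
Difference in log2 floored signal, distal minus proximal, of each gene in dKO (circles), RA (diamonds) and control (squares), 1 pair of arrays a condition. Dotted lines mark 2-fold and open symbols are bounds. For Sp6, Sp8, Sall1 and Sall3 the RA points lie farthest to the right, up to 4.10 for Sp8, and the dKO points lie left of the control points.

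The order of these differences was the same for the 4 genes, with RA largest, control next and dKO smallest. For Sp8 they were 0.72 in dKO, at least 4.10 in RA and 1.36 in control. Whether the conditions differ in this could not be tested, since an interaction of part and condition leaves no residual with 1 array a group, and the RA value rests on the proximal RA array described above. In the additive limma fit none of the 7 genes passed for part over all genes (0 of 12147 genes did, 0.00% in each direction, with 1156 at an unadjusted p under 0.05). Sp6 came nearest, with log2 1.48 (SE 0.29, limma adjusted p = 0.171), and 4 of 7 genes, Sp6, Sp8, Sall1 and Sall3, had an unadjusted p under 0.05. Without the proximal RA array, an alternative chosen after seeing the data, the part estimates come from the control and dKO pairs alone. They were log2 1.10 for Sp6, 1.04 for Sp8, 0.74 for Sall1 and 1.002 for Sall3. The planned fit without the RA pair gave the same estimates. It called Sp6 (limma adjusted p = 0.0176), Sp8 (0.0124) and Sall1 (0.0182) but not Sall3 (0.0583), and called 287 of 11878 genes in all. That fit has 1 residual degree of freedom and its p-values rest mostly on the variance pooled over genes.

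Second probe sets of Sall1 and Sall3 were dimmer but gave the same direction in the control pair, with distal Sall1 at 160 against 51.3 proximally (at least log2 1.33) and distal Sall3 at 147 against 30.3 (at least 1.20). For Sall3 it was also higher distally in RA (130 against 35.7, at least log2 1.05). The second probe set of Sall4 differed by at most 0.16 on the log2 scale between the parts of any condition.

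Surface ectoderm and ridge genes were read on the same arrays, since Sp6 and Sp8 mark ectoderm. The summed signal of 17 ectoderm markers was 30049 in the distal and 20047 in the proximal dKO bud, 24880 and 16488 in RA, and 29988 and 18455 in control, and only Cldn4 was below the floor, on each proximal array. By their median the markers were higher distally by log2 0.69 in dKO, 0.53 in RA and 0.75 in control, with 4, 4 and 2 of 17 at 2-fold or more higher and, in RA, 1 lower (Krt19). Of the 19 ridge genes 1 of 16 measured was 2-fold lower distally in RA (Fgfr2) and none was in dKO or control. Those 2-fold higher distally were 0 of 17 in dKO, 9 of 16 in RA and 8 of 17 in control. Among them were Fgf4, a ridge growth factor (104 distally and 26.2 proximally in dKO, 1431 and 39.1 in RA, 2141 and 92.7 in control), and Dlx2, a homeobox gene (808 and 614 in dKO, 882 and 156 in RA, 1054 and 433 in control). In bulk tissue, fewer cells of a type and less RNA per cell cannot be told apart. The part of ectoderm content in the differences of Sp6 and Sp8 between the parts of the bud was not tested.

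The comparison of RA with control addressed which of the factors differ between RA and control buds. In both parts the arrays compared also differ in the sex-linked genes Xist and Eif2s3y, in BioB and in the Ring1A label. RA exposure cannot be told apart from these differences in the proximal or the distal bud. In the proximal bud 6 of 7 genes were 2-fold or more lower in RA and none was higher, where 6.80% of all genes tested were lower and 3.69% higher. Sp8 was at least 9.60-fold lower (log2 -3.26), Sall1 5.16-fold (-2.37), Sall3 at least 4.32-fold (-2.11), Sp5 4.19-fold (-2.07), Sp6 3.01-fold (-1.59) and Sall2 2.08-fold (-1.06), and Sall4 differed by log2 -0.24. The count was 5 of 7 after quantile normalization, where Sall2 had -0.95, and 5 of 7 with the mean of all probe sets of a gene, where Sp6 had -0.41. The median of the 7 was log2 -2.07, beside 0.01 over all genes. In the distal bud only Sp5 reached 2-fold, at least 2.13-fold lower (log2 -1.09, where 2.13% of all genes were lower and 2.16% higher). With a fixed floor of 100 in place of the array median Sp5 did not (log2 -0.54). That floor allows no larger difference from its distal control signal of 145, so the outcome was set in advance. The other distal values were -0.81 for Sall2, -0.66 for Sp6, -0.53 for Sall1, -0.52 for Sp8, 0.20 for Sall3 and 0.20 for Sall4, with a median of the 7 of -0.53, beside -0.04 over all genes. The dimmer second probe set of Sall1 was past 2-fold lower distally (77.5 in RA and 160 in control, log2 -1.05), and that of Sall3 had log2 -0.18. Both of these probe sets were below the floor in both proximal buds.

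**Figure D3:**
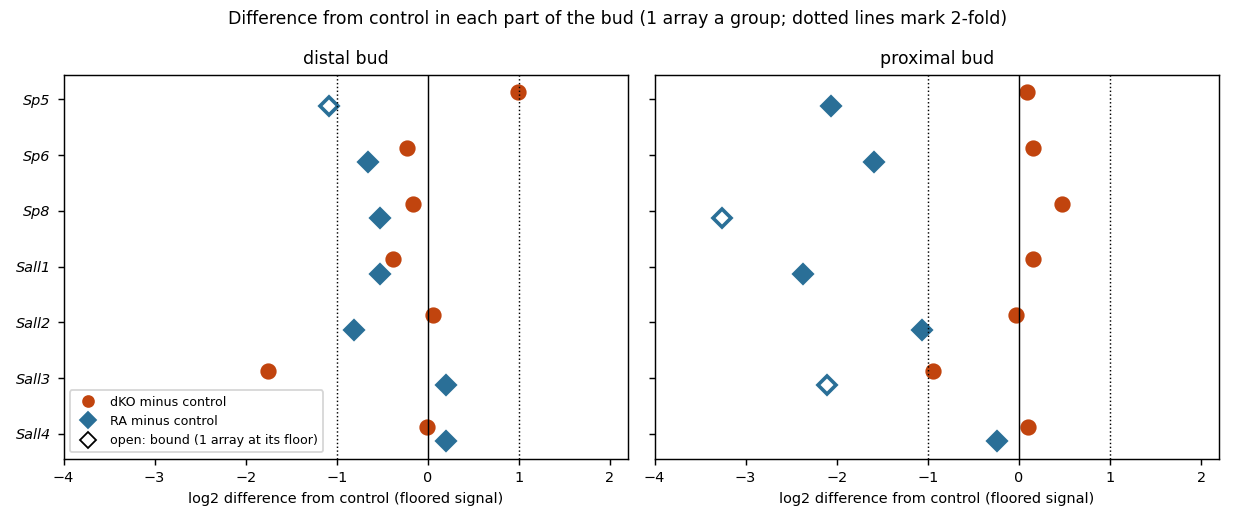
Difference in log2 floored signal from control in the distal (left) and proximal (right) bud for each gene, with circles for dKO and diamonds for RA, 1 array a group. Dotted lines mark 2-fold and open symbols are bounds. In the proximal bud 6 of 7 RA diamonds lie beyond 2-fold lower, down to -3.26 for Sp8, and the largest dKO difference is that of Sall3 in the distal bud (-1.76).

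Sp5, Sp6, Sp8, Sall1 and Sall2 had values below control in both parts, and for Sp8, Sall3 and Sall1 the proximal value was the lower one by the widest margin. The proximal and distal differences from control were at least 2.74 apart on the log2 scale for Sp8, at least 2.31 for Sall3 and 1.84 for Sall1. For Sp6 they were 0.93 apart and for Sall2 0.25, and for Sp5, with the distal RA array at its floor, the proximal difference exceeded the distal one by at most 0.98. In limma over both parts none of the 7 passed (0.305% of all genes rose and 0.239% fell, with 2032 of 12147 at an unadjusted p under 0.05), and 5 of 7 had an unadjusted p under 0.05. Sall2 came nearest (log2 -0.94, SE 0.16, limma adjusted p = 0.072), followed by Sp5 (-1.58, SE 0.30, limma adjusted p = 0.0832), while Sp8 had the largest estimate with a wide error (-1.89, SE 0.72, limma adjusted p = 0.278). Without the proximal RA array the RA estimates were log2 -1.31 for Sp5, with the distal RA array at its floor, and -0.84 for Sall2. That fit called 3.33% of all genes higher and 4.82% lower, but it leaves 1 RA array. Its error comes from the control and dKO arrays alone, so its calls for RA are not read. The other estimates were -0.56 for Sp6, -0.39 for Sall1, -0.36 for Sp8, 0.41 for Sall3 and 0.22 for Sall4. The proximal RA array thus decided the size of these other values and the sign for Sall3 and Sall4.

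Other gene groups were read in the proximal RA bud beside these genes. Of the other Sp factors, Sp1 and Sp4, both broadly expressed, were 2-fold lower there, with Sp1 at 764 in RA and 1846 in control and Sp4 at 223 and 613, while Sp3 had 165 and 166. Distally Sp1 (2293 in RA and 1969.8 in control) and Sp4 (511 and 464) did not reach 2-fold and Sp3 was higher (330.3 and 160). Ridge genes were lower in 4 of 14 and higher in 0 (median log2 -0.52): Rspo2, a secreted WNT enhancer (192 and 577), Cd44, a cell adhesion receptor (70.2 and 206), Dlx2 (156 and 433) and Wnt5a, a WNT ligand (375 and 763). The 14 leave out Fgf8, Fgf17, Dlx5, Dlx6 and En1, which were below the floor in both proximal buds. Of the WNT target genes, which were read because Sp5 is one, 1 of 9 was lower and 0 higher (median -0.40): Nkd1, a feedback inhibitor of WNT (231 and 468), whereas Axin2, the usual reporter of the pathway, had 2149 and 2843. In the distal bud 1 of 10 was lower, Rnf43 (84.2 in RA and 195 in control), with a median of -0.35, and Axin2 had 2906 and 3518. None of the other Sp factors, the ridge genes or the WNT targets passed in limma for either condition.

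**Figure D4:**
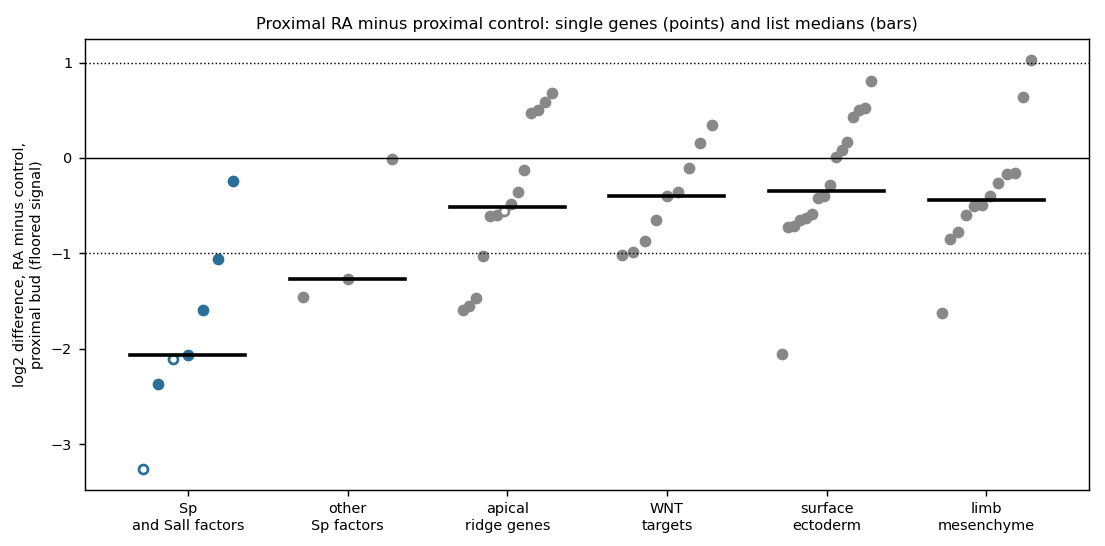
Difference in log2 floored signal, proximal RA minus proximal control, of each measured gene (points, open where 1 array is at its floor) in 6 lists, with the list median as a bar. The median is -2.07 for the 7 Sp and Sall genes, -1.27 for 3 other Sp factors, and between -0.52 and -0.34 for ridge genes, WNT targets, surface ectoderm and limb mesenchyme.

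Surface ectoderm markers were lower in the proximal RA bud in 1 of 16 and higher in 0, with a median of log2 -0.34. The 1 gene was Tfap2a, an ectodermal transcription factor (410.4 in RA and 1708 in control). The other 15 ran from log2 -0.73 for Cdh1, an epithelial cadherin (716 in RA and 1186 in control), to 0.81 for Krt5, a basal keratin (439 and 251). In the distal bud 2 of 17 were lower, the basal keratins Krt5 and Krt14, and 0 higher, with a median of -0.55. Limb mesenchyme markers had 1 of 12 higher and 1 lower (median -0.45). Markers of the somite and body wall were higher in 3 of 4 and lower in 1, with a summed signal of 5864 in RA and 2743 in control. Among other tissues, no muscle marker of 4, endothelial marker of 8, erythroid marker of 4 or neural marker of 3 was 2-fold in either direction, and 1 of 2 macrophage markers was higher. The part of body wall tissue, RNA quality or the array itself in the low values of the proximal RA bud was not tested.

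The comparison of dKO with control, which by their labels differ in Ring1B and the Cre transgene, showed 1 of the 7 genes at 2-fold. Sall3 was 3.38-fold lower in the distal dKO bud (214 in dKO and 724 in control, log2 -1.76), where 0.524% of all genes were lower and 5.32% higher. In the proximal bud Sall3 had 142 in dKO and 272 in control (log2 -0.94), and no gene of the 7 reached 2-fold (0.363% of all genes were lower and 4.07% higher). The second probe set of Sall3 gave 54.3 in dKO and 147 in control distally, at least log2 0.95 lower in dKO, and was below the floor in both proximal buds. Sp5 had a value of the opposite sign, 287 in the distal dKO bud and 145 in the distal control bud (log2 0.99, and 0.63 after each array was divided by its median), and 0.09 proximally. Sall1 had -0.38 distally and 0.15 proximally, and its dimmer second probe set had 51.4 in dKO and 160 in control distally, at least log2 1.07 lower in dKO, so the probe sets of Sall1 disagree in size.

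Sp6 and Sp8, the ectodermal factors, differed little from control in the dKO arrays. Sp8 had log2 -0.17 distally and 0.48 proximally, and Sp6 had -0.23 and 0.16. Sall2 had 0.06 and -0.03, and Sall4 -0.01 and 0.09. Surface ectoderm markers had 1 of 17 higher distally (Krt19) and 0 of 16 proximally, with medians of -0.09 and 0.12. Ridge genes differed more on the same arrays: 3 of 17 were lower distally, Fgf4 with 104 in dKO and 2141 in control, Fgf8, the main ridge FGF, with 109 and 238, and Fgf9, and 3 of 16 were higher proximally, Bmp2, a BMP ligand (261 and 89.7), Dlx5 and Cd44. Of the WNT targets 0 of 10 distally and 0 of 9 proximally reached 2-fold, and of the other Sp factors 0 of 4 and 0 of 3.

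In limma none of the 7 genes passed for dKO (2.21% of all genes rose and 0.115% fell), and 0 of 7 had an unadjusted p under 0.05, against 1411 of 12147 genes. Sall3 came nearest, with log2 -1.35 (SE 0.67, limma adjusted p = 0.578), and its error includes the unlike RA values of the parts. Without the proximal RA array Sall3 passed (limma adjusted p = 0.00224), where 9.08% of all genes were called higher and 1.40% lower. The dKO estimates use no RA array, so that of Sall3 stays at -1.35 by construction and is not a second measurement. Only the error and the p-value could change. The Sp5 estimate of 0.54 is fixed in the same way (limma adjusted p = 0.662, and 0.200 without that array). Markers of other tissues in dKO were higher for muscle precursors (3 of 4 distally, 1 of 5 proximally) and for the neurofilament genes Nefl and Nefm (2 of 3 neural markers in each part), were higher in 1 of 5 and lower in 1 and 2 of 5 for the somite and body wall distally and proximally, and were 2-fold for no endothelial, erythroid or macrophage marker. Their part in the values of Sall3 was not tested.

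The RA and dKO comparisons share the control arrays, so their values are only set side by side. In the distal bud Sall3 had log2 -1.76 in dKO and 0.20 in RA, and Sp5 had 0.99 in dKO and at most -1.09 in RA. In the proximal bud Sp8 had 0.48 in dKO and at most -3.26 in RA, and Sall1 had 0.15 and -2.37. By its brightest probe set Sall4 stayed within 0.24 of control on the log2 scale in each of the 4 comparisons. Its dimmer second probe set had log2 0.36 in the proximal dKO bud.

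The profiles of the genes over the 6 arrays were compared with those of all 12147 genes by the root mean square (RMS) difference of their centred log2 signals, as a description. Nearest to Sp8 was Sall1 (RMS 0.48), followed by Cbln1, a secreted protein of synapses (0.483), and Lmo7, a LIM domain protein (0.50). Sp6 and Sall1 were 0.27 apart. Nearest to Sp6 were Fmn1, the formin of the mouse limb deformity locus (0.18), Dlx2 (0.198) and Dsc2, a desmosomal cadherin (0.20), and nearest to Sall1 were Pmaip1, a p53 target (0.17), Dsc2 (0.22) and Socs2, a cytokine feedback inhibitor (0.23). Fmn1 had 373 distally and 179 proximally in dKO, 356 and 56.7 in RA, and 550.1 and 199 in control, the same order of arrays as Sp6 at both ends. Nearest to Sall3 were Svopl (0.42), Apod (0.45) and Spry4, an FGF feedback inhibitor (0.51), so Sp8 and Sall3 had more distant neighbours than the other members compared. The RMS difference was not scaled by the span of a gene. Sp8 and Sall3 also had the widest log2 spans over the arrays (4.62 and 3.73), against 1.06 for Sall2. For Sp6, Sp8, Sall1 and Sall3 the lowest array was the proximal RA array described above. Sp5 was nearest to Arntl2 (0.21), Abtb2 (0.25) and Tmem63a (0.27), and Sall2 to Kif1c, a kinesin (0.03), Enox2 (0.06) and Thra, a thyroid hormone receptor (0.07), all genes with lower signal on both RA arrays than on the others.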

How the data were processed

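Signal intensity per probe set was deposited on a linear scale by the authors, from MAS5 (no version given) per the submitters' processing notes. Per the labels' protocols, RNA was extracted on RNeasy Micro columns and labelled with biotin as cRNA. The deposited values have a mean of 500 on every array after trimming 2% of probe sets at either end, and carry no detection calls. The annotation lists 34958 probe sets with 1 gene symbol, 932 with several and leaves 9211 without a gene; 34754 gene IDs matched RefSeq and 0 symbols changed. Of several probe sets for a gene the one brightest on average (log2) was taken, signals were floored at the array median, and genes that exceeded the floor on 1 array or more were tested.

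The additive fit used limma 3.58.1 in R 4.3.3 (trended prior, 4.64 prior and 2 residual degrees of freedom, Benjamini-Hochberg adjustment over all genes, adjusted p under 0.05). It was also run on simulated arrays with additive changes and independent errors, which do not model an array that stands apart, such as proximal RA. The number of arrays, 1 a group, limits the precision. Named were the 7 genes, up to 4 members of each list at 2-fold in a comparison, and the 3 nearest profiles of each gene whose log2 signal spanned 1 or more. The genes and lists were chosen with earlier results of these data known. Alternatives were a fixed floor of 100, no floor with 16 added to the signal, division by the array median, quantile normalization, the mean of all probe sets of a gene, no filter, no trend, and fits without a pair of arrays or, added after seeing the data, without the proximal RA array.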

Additional observations from a re-analysis of the deposited data

How the results depend on the processing

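Of 64 recomputed counts of the 7 genes, 48 stayed within 1.5 times the reported count and 16 did not. In the proximal bud of dKO against control, 0 genes at 2-fold became 1 (Sall3, log2 -1.13 and -1.03) when arrays were divided by their medians and under quantile normalization. In the distal bud of RA against control, 1 became 0 with a fixed floor of 100 (Sp5, whose control signal of 145 allows no 2-fold there). It became 2 after division by the median (Sall2, log2 -1.01). In the distal against the proximal control bud, 5 became 3 with 16 added to the signal and no floor (Sp5 -0.96, Sall1 0.998). In limma, 0 genes for dKO became 1 (Sall3) with no filter, 1 without the RA pair and 1 without the proximal RA array. For RA, 0 became 5 with no filter (1245 of 18193 genes called) and 3 without the dKO pair (308 of 11822), against 66 of 12147 genes in the reported fit. The fit without the proximal RA array leaves 1 RA array, so its count for RA is not read. Its estimates for part equal those without the RA pair, so its count for part is not read either. For part, 0 became 4 with no filter (768 of 18193 genes called), 4 without the control pair (334 of 12039), 4 without the dKO pair (225 of 11822) and 3 without the RA pair (287 of 11878). With no filter the prior degrees of freedom were infinite, so a gene's own variance did not enter its p-value. The same fits called more of all genes: 7656 of 18193 for dKO with no filter, where genes at the floor on every array enter, against 283 of 12147, and 1135 without the RA pair. Estimates of uncalled genes changed sign for dKO after division by the median (Sp8 -0.12, Sall2 -0.26, Sall4 -0.23), for Sp6 with the mean of its 4 probe sets (0.20), and for RA without the proximal RA array (Sall3 0.41, Sall4 0.22). Division by the median lowered the dKO estimates of all 7 genes, that of Sall4 from 0.04 to -0.23. Without the proximal RA array the RA estimates rest on the distal RA array. With the mean of its 4 probe sets, which includes 3 never above the floor, Sp6 was below 2-fold in the proximal RA bud (-0.41) and between the parts in RA (0.64) and control (0.25).

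Over all genes, the median difference shifted after division by the array median by -0.36 to 0.10 on the log2 scale. It gave 321 genes higher and 192 lower in distal dKO (620 and 61 as deposited), 159 and 424 in distal RA (246 and 243), and, for distal against proximal, 67 and 84 in dKO (84 and 60), 546 and 742 in RA (708 and 506; 577 and 628 after quantile normalization) and 196 and 124 in control (159 and 154). No paired analysis was possible because each group has 1 array and the labels give no replicate numbers, other than the additive fit itself, which sets distal against proximal within each condition. The files give no detection calls, so what lies below the array median has no order.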
